A study of Mus musculus with 6 samples.

Results

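The genes described here are 39 genes of DNA replication and deoxynucleotide supply, measured in CD8+ T cells from mouse spleen. They were taken by symbol from a fixed list, which was chosen with earlier results of these data known. All 39 were found among the 28773 gene IDs of the deposited tables, and all 39 were among the 12444 genes with a mean of at least 1 FPKM, the set that was tested. FPKM counts fragments scaled by transcript length and by the library's mapped fragments, so levels of different genes are compared per length. The 6 samples were taken on day 35 and formed 2 groups of 3. Both groups came from female tumor-bearing mice whose tumor had been treated by microwave ablation (MWA), which destroys tissue by heat. MWA+PBS mice (replicates 1 to 3) then received PBS by intraperitoneal injection, and MWA+2DG mice (replicates 4 to 6) received 2-deoxy-D-glucose (2DG), a glucose analogue that blocks glycolysis, by the same route. In the paper's schedule, days are counted from tumor cell inoculation and the repeated injections ended before day 35. The paper detected no 2DG in plasma some days after the last injection, so the cells were sampled after dosing had ended. The comparison asked how the drug, given after ablation, altered the RNA of these cells. No unablated or untreated group was analysed here, and the labels for these samples name neither the strain nor the tumor line, nor whether each sample was 1 mouse. The p-values therefore measure the spread between these samples only, which may be technical.

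A eukaryotic cell copies its DNA once in each division cycle. In G1 the origin recognition complex (Orc proteins) with Cdc6 and Cdt1 loads the MCM helicase onto origins, a step called licensing. At the start of S phase Cdc45 and the GINS complex join MCM to form the active helicase, primase and the replicative polymerases copy the strands, the PCNA clamp and its RFC loader hold the polymerases on DNA, and ribonucleotide reductase and thymidylate synthase supply the building blocks. Many of these genes are transcribed under E2F factors, which bind sites close to the start of transcription and are held inactive or repressive by RB family proteins until these are released. Resting CD8+ T cells express them at low levels, and antigen-driven T cells switch them on for rapid division.

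The promoters are shown first because the E2F letters in them are a feature that many of the genes share beyond their role. The letters searched on both strands were TTCCCGC with the variant forms TTCGCGC, also TTGCCGC and, as the last form, TTGGCGC, within the RefSeq promoter (250 bases before to 50 bases after each annotated start, build GRCm38.p6). Of the 39 genes, 33 had a promoter in that table, and Gins1, Gins2, Mcm4, Prim2, Pole and Rfc2 had none. At least 1 match was found in 21 of the 33 genes, or 63.6% (Wilson 95% interval 46.6 to 77.8%, which treats genes as independent draws), against 19.9% of the 8342 tested genes in the table and 10.9% of all 27025 genes in it. The share was 63.2% (12 of 19) among the genes called lower in MWA+2DG and 64.3% (9 of 14) among the others. CCAAT, the letters of the NF-Y box, were present in 57.6% of the 33 genes, against 43.1% of tested genes and 41.1% of all genes. Below are the 120 bases before the start site of 6 genes, 3 that fell (Chaf1a, Mcm6, Rrm1), 2 that were not called (Orc1, Rfc3) and 1 that rose (Gins3), 5′ to 3′ on the gene's strand. Capitals mark the E2F letters on either strand, printed as the reverse complement where the match lies on the opposite strand. They lie at chr17:56040296-56040415 (+), chr1:128359706-128359825 (-), chr7:102441575-102441694 (+), chr4:108579334-108579453 (+), chr5:151651209-151651328 (-) and chr8:95633439-95633558 (+), in that order.
Chaf1a: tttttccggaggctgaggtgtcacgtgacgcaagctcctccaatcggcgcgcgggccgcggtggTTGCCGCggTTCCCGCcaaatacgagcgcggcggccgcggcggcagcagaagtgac
Mcm6: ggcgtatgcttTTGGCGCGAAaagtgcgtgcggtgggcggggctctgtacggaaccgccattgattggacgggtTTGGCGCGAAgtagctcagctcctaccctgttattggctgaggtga
Rrm1: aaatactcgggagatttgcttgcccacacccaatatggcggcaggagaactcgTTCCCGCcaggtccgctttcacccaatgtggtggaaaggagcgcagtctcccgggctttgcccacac
Orc1: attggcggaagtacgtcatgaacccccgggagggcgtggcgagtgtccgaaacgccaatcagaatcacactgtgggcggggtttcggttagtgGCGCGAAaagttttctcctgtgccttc
Rfc3: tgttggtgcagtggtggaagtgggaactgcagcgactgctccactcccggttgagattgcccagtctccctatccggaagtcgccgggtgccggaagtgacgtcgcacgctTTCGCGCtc
Gins3: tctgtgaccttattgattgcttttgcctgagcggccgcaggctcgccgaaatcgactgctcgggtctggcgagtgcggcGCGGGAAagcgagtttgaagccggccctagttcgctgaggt
The stretch of Chaf1a held 2 matches and that of Mcm6 held 4, as a pair of runs in which TTGGCGC and the reverse of TTCGCGC overlap. CCAAT can likewise share its first base with the end of TTCCCGC or TTGCCGC. Rrm1, Orc1, Rfc3 and Gins3 each held 1 match in the stretch shown, so such letters stood in front of genes that fell, did not pass the test or rose. Only stretches with a match are shown, and those of Cdc6, Cdc45, Mcm10 and Rrm2, which also fell, held 0. A match is a description of the letters, and factor binding was not measured.

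**Figure D1:**
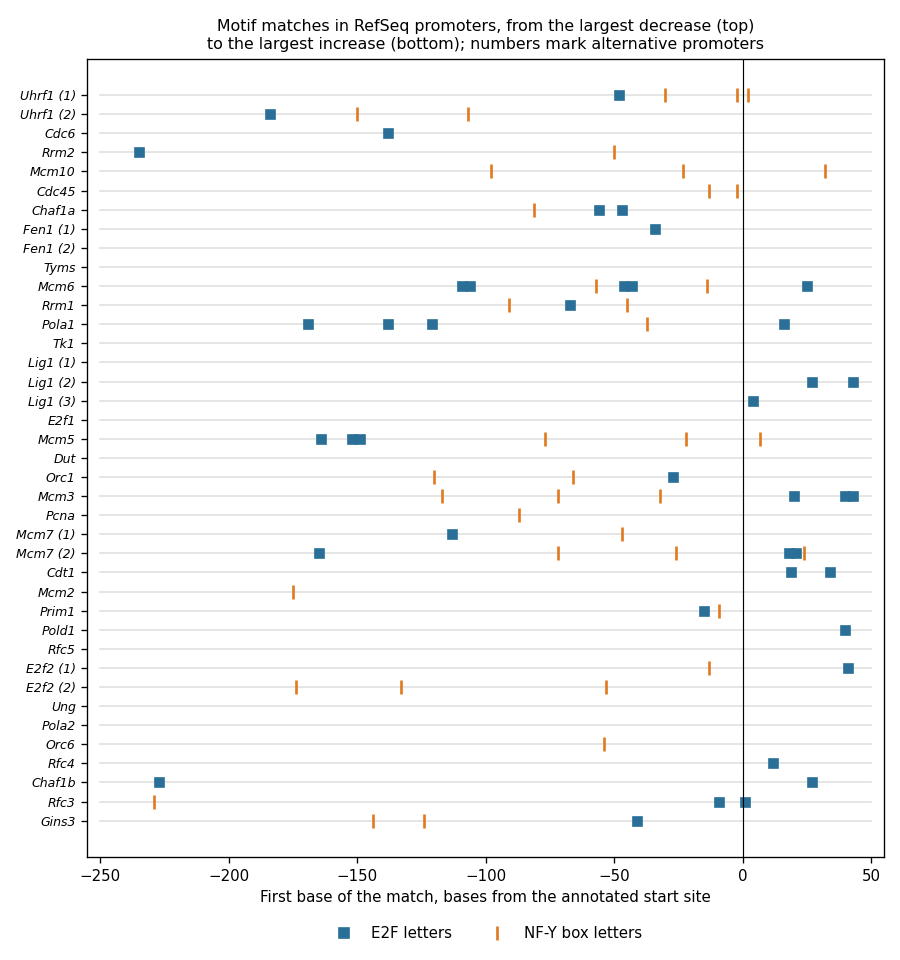
Positions of E2F letters (squares) and NF-Y box letters (ticks) in the 39 RefSeq promoters of 33 genes, in bases from the annotated start site (x axis), with genes ordered from the largest decrease in MWA+2DG (top) to the largest increase (bottom). Squares are found from the top of the plot to the bottom, 12 of 19 genes called lower and 9 of 14 others.

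Of the 39 genes, 20 were lower in MWA+2DG and 1 was higher by limma on log2(FPKM + 1) with a Benjamini-Hochberg adjusted p under 0.05 over all tested genes, and 18 did not pass. That is 51.3% called lower, against 17.1% of all tested genes, and 1 gene called higher, against 22.3% of all tested genes. Since the 39 genes were chosen with earlier results of these data known, these shares describe the set and are not independent evidence. By a rule taken from the study's methods (P under 0.05 and a log fold change past 0.25 in size, here read as log2 of FPKM + 1 since the base is not given), 21 were lower, against 16.6% of all tested genes. In 24 of the 39, every MWA+2DG sample was below every MWA+PBS sample, against 21.9% of all tested genes. The median log2 fold change was -0.28 over the 39 genes and 0.05 over all tested genes, and single genes ranged from -0.81 to 0.32. Their summed level was 427.2, 428.7 and 407.0 FPKM in the MWA+PBS samples against 341.4, 333.6 and 343.6 FPKM in the MWA+2DG samples, with no overlap. These are moderate differences, and 7 of the 39 genes were below -0.5, as were 9.6% of all tested genes. In a bulk sample, fewer dividing cells and less of these RNAs per cell cannot be told apart.

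The scale of the comparison mattered for genes near 0. The samples were also scaled to 18 T lineage genes, whose summed level averaged 1833 ± 45.7 FPKM in the MWA+PBS samples against 2577 ± 92.2 FPKM in the MWA+2DG samples (SD, n = 3 each). That scaling moved the median of all tested genes from 0.05 to -0.38, and most genes were then called lower. Of the 39 genes 37 were lower, against 68.8% of all tested genes, and none was higher, against 3.86% of all tested genes. Since that scaling lowers every gene by the same amount, the 39 genes lay at -0.32 relative to the median of all tested genes under both scalings by construction. The 6 genes with a positive value in the deposited scale (Orc6, Gins3, Pola2, Rfc3, Rfc4 and Chaf1b) all turned negative under T lineage scaling, at -0.37 to -0.11, so their sign holds only relative to the other genes.

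**Figure D2:**
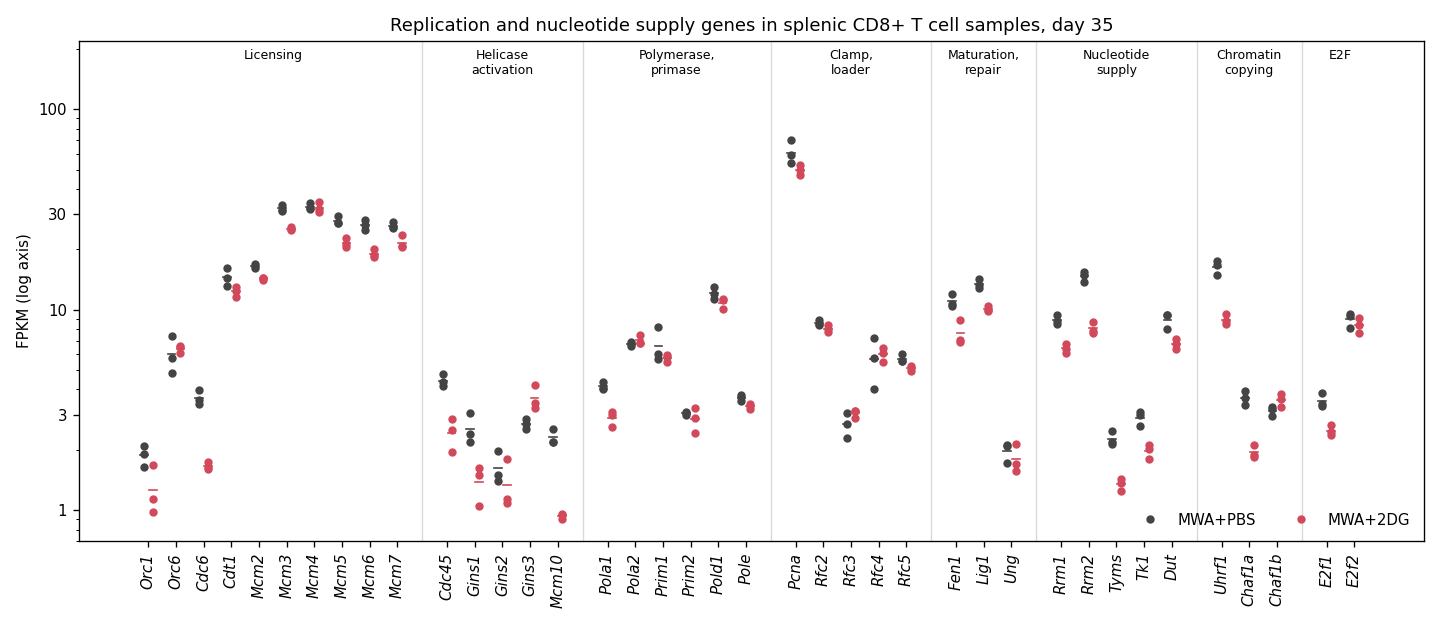
FPKM (log axis) of the 39 genes in the 3 MWA+PBS (grey) and 3 MWA+2DG (red) samples, grouped by role, with a dash at each group mean. The nucleotide supply genes separate fully between the groups, and Mcm4, Orc6 and most RFC genes overlap.

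Origin licensing came first in the pathway, and 6 of its 10 genes fell (60%, against 17.1% of all tested genes). In what follows values are in FPKM, in the order of replicates 1 to 3 for MWA+PBS and 4 to 6 for MWA+2DG, and fold changes are on the log2(FPKM + 1) scale, where the added 1 shrinks the change of genes at low level. Cdc6, the ATPase that recruits MCM to origin-bound ORC, was 3.97, 3.39 and 3.56 in MWA+PBS and 1.6, 1.64 and 1.73 in MWA+2DG. It fell by 0.80 ± 0.08 (SE) on the log2 scale with an adjusted p of 0.000248, and the MWA+2DG mean was 45.5% of the MWA+PBS mean. Cdt1, its partner in MCM loading, was 14.37, 13.20 and 16.20 against 12.39, 13.00 and 11.62, with every MWA+2DG sample lower but an adjusted p of 0.0671 (0.0245 without MWA+PBS replicate 2). Orc1, the ORC subunit whose level varies with the cycle in mammals, was 1.9, 1.65 and 2.09 against 0.98, 1.14 and 1.68 (log2 fold change -0.35, adjusted p 0.0703). The highest MWA+2DG sample of Orc1 exceeded the lowest MWA+PBS sample, and without that one, replicate 6, the adjusted p was 0.0242. Orc6 was 5.77, 7.37 and 4.82 against 6.49, 6.08 and 6.61 (0.10 ± 0.13, adjusted p 0.575), and its MWA+PBS samples spanned its MWA+2DG samples.

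The 6 MCM subunits form a ring in equal numbers, but their RNAs did not shift equally. Mcm6 was 26.55, 24.91 and 27.94 in MWA+PBS and 20.04, 18.71 and 18.39 in MWA+2DG, the largest decrease of the ring (-0.45 ± 0.06, adjusted p 0.00115). Mcm5 was 29.38, 27.06 and 27.01 against 20.53, 22.74 and 21.17 (-0.36, adjusted p 0.00322). Mcm3 was 33.35, 31.02 and 31.60 against 25.82, 25.03 and 25.18 (-0.32, adjusted p 0.00215). The groups of these 3 genes lay well apart, and the decreases of the next pair were smaller. Mcm7 was 27.45, 25.80 and 25.61 against 20.80, 20.58 and 23.48 (-0.27, adjusted p 0.0145). Mcm2 was 16.82, 16.58 and 16.22 against 14.46, 14.47 and 14.07 (-0.19, adjusted p 0.0175), which did not reach the fold of the study's rule. Both calls depended on single samples. Without MWA+PBS replicate 1 the adjusted p was 0.0722 for Mcm2 and 0.0589 for Mcm7, and without MWA+2DG replicate 4 it was 0.0538 and 0.0561. Without MWA+2DG replicate 6 it was 0.0719 for Mcm2. Mcm4 was 32.27, 33.98 and 31.66 against 34.30, 31.70 and 30.71, with full overlap (-0.02, 95% interval -0.16 to 0.12, adjusted p 0.836). Its interval lies wholly above that of Mcm6, -0.60 to -0.31. Divided by the mean of the other 5 subunits in the same sample, Mcm4 was 1.21, 1.36 and 1.23 in MWA+PBS and 1.69, 1.56 and 1.5 in MWA+2DG. This ratio and the ratios given further on do not depend on the scaling between samples, were chosen after the values were seen and carry no test.

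Helicase activation held the largest median decrease among the groups with more than 3 genes (-0.57). In it 3 of 5 genes fell (60%, against 17.1% of all tested genes). Mcm10, which is needed for the assembled helicase to start unwinding, was 2.20, 2.53 and 2.19 in MWA+PBS and 0.95, 0.90 and 0.96 in MWA+2DG (-0.77 ± 0.09, adjusted p 0.000466). Its MWA+2DG level was 40.6% of the MWA+PBS level, the lowest percentage of the 39 genes. Cdc45, a subunit of the active helicase, was 4.35, 4.78 and 4.17 against 2.51, 2.85 and 1.96 (-0.67 ± 0.11, adjusted p 0.00258). The groups did not overlap for either gene. The GINS subunits, which act as a complex with Cdc45 and MCM, went different ways. Gins1 was 3.06, 2.41 and 2.18 against 1.63, 1.05 and 1.49 (-0.57 ± 0.13, adjusted p 0.0126). Gins2 was 1.49, 1.40 and 1.97 against 1.08, 1.14 and 1.80, with overlap (-0.17, adjusted p 0.392). Gins3 was 2.70, 2.85 and 2.55 against 3.23, 4.21 and 3.43 and was the 1 gene called higher (0.32 ± 0.10, adjusted p 0.0347), though under T lineage scaling it was at -0.11. All its MWA+2DG samples exceeded all its MWA+PBS samples, but the adjusted p rose to 0.0862, 0.0947, 0.0866 and 0.0634 without MWA+PBS replicate 1, MWA+PBS replicate 3, MWA+2DG replicate 5 and MWA+2DG replicate 6. Gins3 over Gins1 was 0.882, 1.18 and 1.17 in MWA+PBS and 1.98, 4.01 and 2.30 in MWA+2DG. The remaining subunit, Gins4, from a second list of pathway genes and named after its values were seen, was 14.01, 16.26 and 11.16 against 16.19, 13.22 and 12.80, with overlap (adjusted p 0.872).

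Of the 6 polymerase and primase genes 1 was lower, or 16.7%, close to the 17.1% of all tested genes. Pola1, the catalytic subunit of polymerase alpha, which extends the primers, was 4.02, 4.38 and 4.07 in MWA+PBS and 2.61, 2.99 and 3.08 in MWA+2DG (-0.41 ± 0.08, adjusted p 0.00532). The other 3 subunits of that complex were not called. Pola2, its regulatory subunit, was 6.61, 6.76 and 6.89 against 6.83, 6.86 and 7.52 (0.06, adjusted p 0.499). Prim1, the primase subunit that makes the RNA primer, was 6.0, 8.18 and 5.65 against 5.93, 5.46 and 5.83 (-0.16, adjusted p 0.327). Prim2, the large primase subunit, was 3.05, 3.09 and 2.99 against 3.22, 2.42 and 2.88 (-0.08, adjusted p 0.528). In Prim1 the highest value, MWA+PBS replicate 2, stood apart from the other 5. Pold1, the catalytic subunit of polymerase delta on the lagging strand, was 11.96, 11.25 and 13.00 against 11.29, 10.11 and 11.19 (-0.14, adjusted p 0.167). Pole, the catalytic subunit of polymerase epsilon on the leading strand, was 3.67, 3.49 and 3.76 against 3.31, 3.38 and 3.18 (-0.11, adjusted p 0.220). Pole separated between the groups and Pold1 overlapped by a narrow margin.

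None of the 5 clamp and clamp loader genes passed the adjusted threshold in the limma fit, and 1 of them, Pcna, had an unadjusted p under 0.05 (0.0251). Of all tested genes, 17.1% were called lower and 22.3% higher. Pcna, the sliding clamp and the most abundant of the 39 RNAs, was 58.87, 70.00 and 53.65 in MWA+PBS and 49.93, 46.82 and 52.76 in MWA+2DG. All MWA+2DG samples were lower, but MWA+PBS replicate 3 was close to MWA+2DG replicate 6 (log2 fold change -0.28, 95% interval -0.51 to -0.05, adjusted p 0.0602). Single samples moved it, to -0.36 (adjusted p 0.025) without MWA+PBS replicate 3 and to -0.17 (adjusted p 0.0941) without MWA+PBS replicate 2. Rfc2 was 8.44, 8.85 and 8.35 against 8.00, 7.72 and 8.35 (-0.08, adjusted p 0.304). Rfc5 was 6.01, 5.57 and 5.52 against 5.26, 5.13 and 4.92 (-0.13, adjusted p 0.134), without overlap. Both encode loader subunits, as do the next pair, which had positive values in the deposited scale and negative ones under T lineage scaling. Rfc3 was 2.68, 3.07 and 2.30 against 3.14, 3.13 and 2.89 (0.14, adjusted p 0.269), and Rfc4 was 5.72, 7.23 and 4.04 against 6.44, 5.50 and 6.10 (0.10, adjusted p 0.664). The interval of Rfc4 was the widest of the loader genes, from -0.29 to 0.49.

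Of the genes that finish and check the new strands, 2 of 3 fell (66.7%, against 17.1% of all tested genes). Fen1, the flap endonuclease that trims Okazaki fragments, was 11.93, 10.43 and 10.71 in MWA+PBS and 7.06, 6.93 and 8.85 in MWA+2DG (-0.49 ± 0.10, adjusted p 0.00668). Lig1, the ligase that seals them, was 14.26, 13.28 and 12.77 against 10.44, 9.85 and 9.96 (-0.38 ± 0.06, adjusted p 0.00233). Both separated fully between the groups. Ung, which removes uracil from DNA, was 2.11, 1.71 and 2.08 against 1.69, 2.15 and 1.57, with overlap (-0.08, adjusted p 0.578).

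All 5 nucleotide supply genes fell, and in each of them every MWA+2DG sample was below every MWA+PBS sample. Over all tested genes these shares were 17.1% and 21.9%. Rrm2, the small subunit of ribonucleotide reductase whose synthesis is tied to S phase, was 15.51, 14.95 and 13.76 in MWA+PBS and 7.65, 7.86 and 8.69 in MWA+2DG. It fell by 0.80 ± 0.07 on the log2 scale, to 54.7% of the MWA+PBS mean, with an adjusted p of 0.000136, the smallest of the 39. Rrm1, the large subunit, was 8.53, 9.42 and 8.78 against 6.10, 6.35 and 6.77 (-0.42 ± 0.07, adjusted p 0.00209). The thymidine branch changed with it. Tyms, which makes thymidylate from deoxyuridylate, was 2.19, 2.48 and 2.13 against 1.37, 1.24 and 1.43 (-0.48 ± 0.09, adjusted p 0.00458). Tk1, the cytosolic thymidine kinase of the salvage pathway, was 2.98, 3.08 and 2.63 against 2.12, 2.02 and 1.79 (-0.39 ± 0.09, adjusted p 0.0104). Dut, which hydrolyses dUTP and so keeps uracil out of DNA, was 9.36, 9.40 and 8.02 against 7.11, 6.73 and 6.37 (-0.36 ± 0.08, adjusted p 0.00912). The intervals of the 5 genes ran from -0.96 to -0.18, all below 0.

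Chromatin copying genes included the largest decrease of the set on the log2(FPKM + 1) scale, although as a percentage of the MWA+PBS mean Mcm10 and Cdc6 fell further. Uhrf1, which brings the maintenance methyltransferase to newly copied DNA, was 17.59, 14.88 and 16.68 in MWA+PBS and 8.51, 8.74 and 9.51 in MWA+2DG (-0.81 ± 0.08, adjusted p 0.000181). Chaf1a, the large subunit of the histone chaperone CAF-1, was 3.95, 3.61 and 3.35 against 2.11, 1.89 and 1.84 (-0.65 ± 0.08, adjusted p 0.000794). Both fell to between 53.5 and 54.5% of the MWA+PBS mean. Chaf1b, which pairs with Chaf1a in CAF-1, was 3.18, 3.26 and 2.95 against 3.58, 3.27 and 3.80, all MWA+2DG samples slightly above all MWA+PBS samples but not called (0.14, adjusted p 0.191, and -0.29 under T lineage scaling). Chaf1b over Chaf1a was 0.805, 0.903 and 0.881 in MWA+PBS and 1.70, 1.73 and 2.07 in MWA+2DG.

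Of the E2F genes in the set, E2f1, an activator of replication genes that is itself an E2F target, was 3.39, 3.29 and 3.82 in MWA+PBS and 2.46, 2.66 and 2.36 in MWA+2DG (-0.36 ± 0.08, adjusted p 0.00976). E2f2, also classed as an activator, was 9.53, 8.07 and 9.31 against 8.39, 9.10 and 7.63, with overlap (-0.09, 95% interval -0.29 to 0.11, adjusted p 0.445). E2f2 was the more abundant of the pair in every sample.

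**Figure D3:**
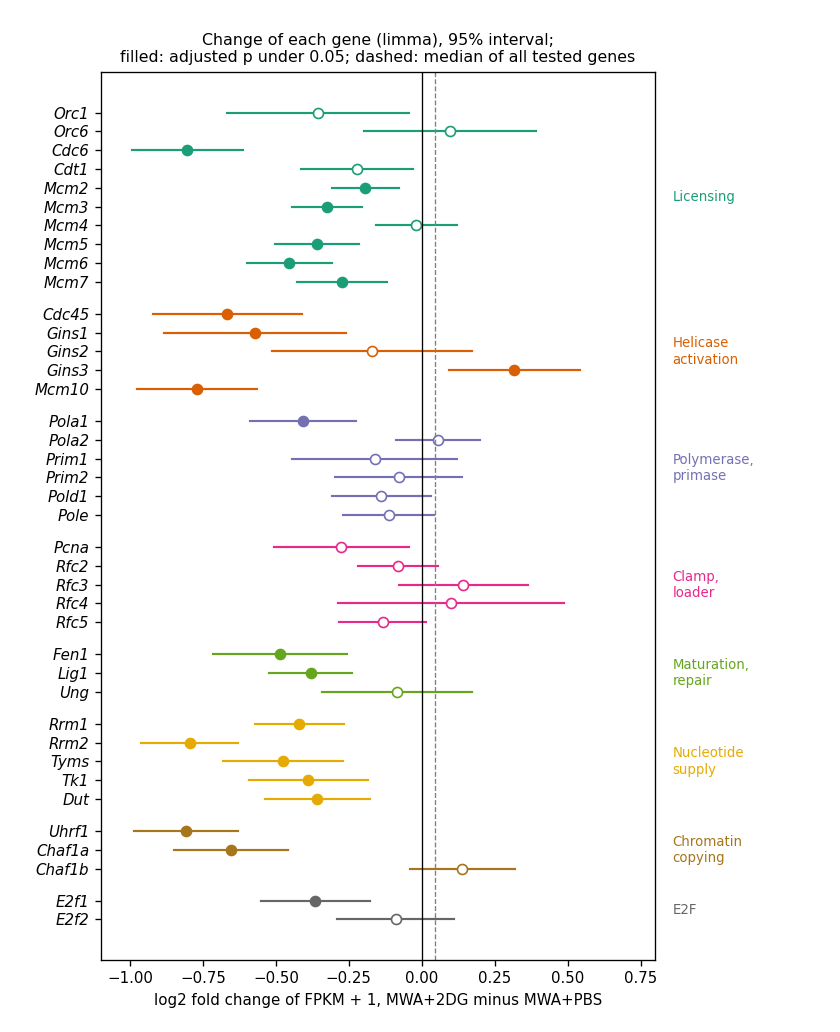
Log2 fold change of each of the 39 genes (x axis, FPKM + 1, MWA+2DG minus MWA+PBS) with its 95% limma interval, by role. Filled points passed an adjusted p under 0.05, open points did not, and the dashed line is the median of all tested genes at 0.05. Filled points lie left of 0 except for Gins3 at 0.32, which is at -0.11 under T lineage scaling.

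A further 86 genes of the pathway were listed by hand, and 84 were tested. Of these, 14 were lower, 16 were higher and 54 were not called, with a median log2 fold change of 0.02, so the share called lower (16.7%) was close to the 17.1% of all tested genes. For the higher calls, the share of all tested genes was 22.3%. Under T lineage scaling 67 of the 84 were lower and 1 was higher, against 68.8% and 3.86% of all tested genes. The 16 higher calls fell to 9 without MWA+PBS replicate 1 and to 9 without MWA+2DG replicate 6. Among 39 tested replication factors, 4 were lower (10.3%) and 5 higher, against 17.1% and 22.3% of all tested genes. Dna2, a nuclease and helicase of Okazaki fragment processing, was 3.59, 3.47 and 3.05 in MWA+PBS and 1.22, 1.43 and 1.5 in MWA+2DG (-0.87, adjusted p 0.000285). Ticrr, which helps load Cdc45, also fell (-0.50, adjusted p 0.0103), from a mean of 1.5 FPKM to 0.76 FPKM, so it passed the filter through its MWA+PBS level. Tipin, a fork protection factor, was higher (0.59, adjusted p 0.00791), as was Pole2, an accessory subunit of polymerase epsilon (0.45, adjusted p 0.0483), and both stayed above 0 under T lineage scaling (0.16 and 0.03) without passing the test there. The call of Pole2 was also lost with a pseudocount of 0.1 (adjusted p 0.0508), no filter (0.117), quantile normalization (0.0569), median ratio scaling (0.0595) and no variance trend (0.057). It was lost as well without MWA+PBS replicate 1 (0.11) or 3 (0.107) and without MWA+2DG replicate 4 (0.0697), 5 (0.135) or 6 (0.0959). The single-strand binding proteins Rpa1, Rpa2 and Rpa3 gave 0.07, 0.01 and 0.31 with adjusted p of 0.260, 0.896 and 0.176. The value of Rpa3 rested on single samples, at 0.51 and called higher without MWA+PBS replicate 2 (adjusted p 0.00951) and at 0.14 without MWA+PBS replicate 3, and sample weights also gave a call (0.0268). Gmnn, the inhibitor of Cdt1, gave 0.16 (adjusted p 0.232). Dnmt1, the methyltransferase that Uhrf1 recruits, was 38.85, 35.56 and 40.89 against 38.62, 39.29 and 38.94 (0.02, adjusted p 0.813). Uhrf1 over Dnmt1 was 0.453, 0.418 and 0.408 in MWA+PBS and 0.220, 0.222 and 0.244 in MWA+2DG.

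Among 28 other nucleotide enzymes, 5 were lower (17.9%) and 7 higher, close to the 17.1% and 22.3% of all tested genes. Rrm2b, the reductase subunit used outside S phase and after DNA damage, was 3.52, 3.49 and 3.20 in MWA+PBS and 5.24, 5.87 and 5.92 in MWA+2DG, opposite to Rrm2 (0.60 ± 0.07, adjusted p 0.00061). Under T lineage scaling Rrm2b was at 0.17 and not called (adjusted p 0.0768). Rrm2 over Rrm2b was 4.41, 4.28 and 4.30 in MWA+PBS and 1.46, 1.34 and 1.47 in MWA+2DG. Tk2, the mitochondrial thymidine kinase, named here after its values were seen, was 10.04, 10.64 and 9.46 against 15.55, 13.65 and 14.87 (0.51, adjusted p 0.00115), opposite to Tk1, and under T lineage scaling was at 0.08 and not called (adjusted p 0.267). Tk1 over Tk2 was 0.297, 0.290 and 0.278 in MWA+PBS and 0.136, 0.148 and 0.12 in MWA+2DG. Dguok, the mitochondrial deoxyguanosine kinase, gave the largest increase of the list (0.72, adjusted p 0.000147). It was the 1 gene of the 84 still called higher under T lineage scaling (0.30, adjusted p 0.00556). Samhd1, which breaks down deoxynucleotides in resting cells, was 42.57, 43.65 and 43.72 against 50.42, 53.03 and 51.03 (0.24, adjusted p 0.00575, but -0.18 under T lineage scaling). The largest decreases in that list were those of Umps, a pyrimidine enzyme (-0.62, adjusted p 0.000265), and Atic, a purine enzyme (-0.51, adjusted p 0.00155).

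Among 17 tested genes of E2F, RB and S phase control, 5 were lower (29.4%) and 4 higher, against 17.1% and 22.3% of all tested genes. E2f8, a repressor of the E2F family that is expressed from S phase on, was 6.03, 5.88 and 6.27 in MWA+PBS and 2.54, 2.5 and 2.33 in MWA+2DG (-1.03 ± 0.07, adjusted p 2.8e-05). Ccna2, the cyclin of S phase and G2, fell by 0.96 on the log2 scale (adjusted p 0.000337). E2f5, a repressor that acts with RB family proteins, and Atr, the kinase that guards stalled forks, were higher (0.32 and 0.31, adjusted p 0.0452 and 0.0147), but under T lineage scaling they were at -0.11 and -0.12. The call of E2f5 was also lost with no filter (adjusted p 0.101), quantile normalization (0.0537), median ratio scaling (0.0627), no variance trend (0.0513), and without MWA+PBS replicate 1 (0.106) or 3 (0.125) or MWA+2DG replicate 4 (0.117) or 6 (0.0662). That of Atr was lost without MWA+PBS replicate 1 (0.054) or MWA+2DG replicate 6 (0.0583). All 12 genes of a mitosis list fell, with a median of -0.79 and a summed level of 119.8 ± 2.86 FPKM in the MWA+PBS samples against 63.7 ± 1.21 FPKM in the MWA+2DG samples, a larger relative change than that of the 39 genes.

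**Figure D4:**
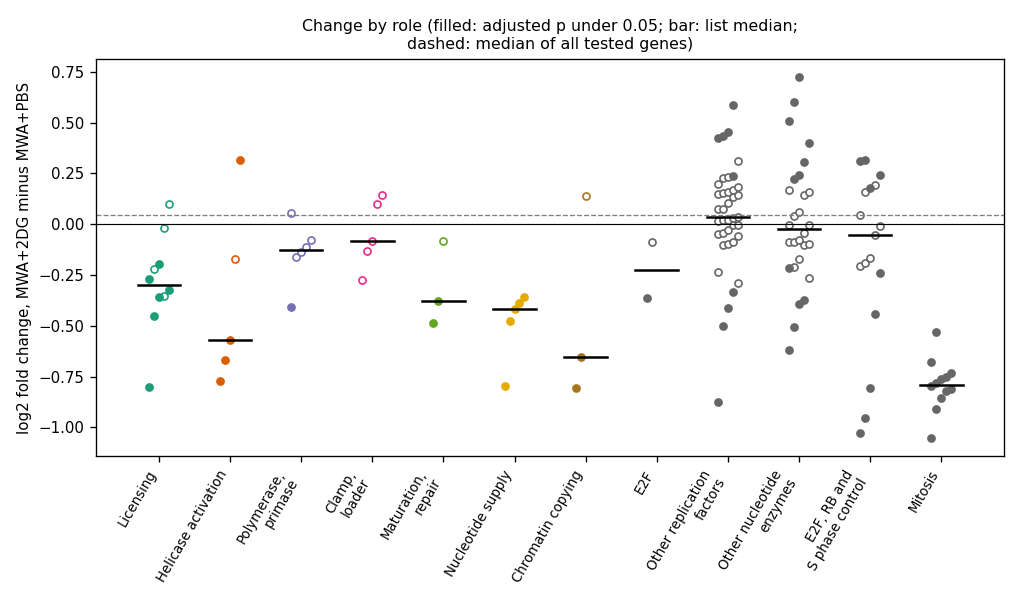
Log2 fold changes (y axis, FPKM + 1, MWA+2DG minus MWA+PBS) of single genes by role, with filled points for an adjusted p under 0.05 and a bar at each list's median. The medians run from -0.65 in chromatin copying to -0.08 in clamp and loader, the 3 further pathway lists lie at -0.05 to 0.03, and mitosis lies at -0.79.

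Replication genes are active in any dividing cell, and markers of other cell types differed between the groups. The study's methods describe lysis of red cells and a CD8+ T cell isolation kit, and its supplement shows a check of the sorting. T lineage markers were abundant (Cd8a 229.5, 239.3 and 225.8 FPKM against 363.1, 359.0 and 377.1), with 16 of 18 higher in MWA+2DG and none lower. Beside this and the marker counts below, 17.1% of all tested genes were lower and 22.3% higher. Of 13 tested erythroid genes 12 were lower, with sums of 254.4 to 301.7 FPKM in the MWA+PBS samples against 71.8 to 90.1 FPKM in the MWA+2DG samples, led by Hba-a1. Of 7 promyelocyte genes 6 were lower and 1 higher, with sums of 357.4 to 411.4 and 75.8 to 81.2 FPKM, led by Mpo. Macrophage genes were all lower (12 of 12, 857.2 to 926.9 and 123.3 to 132.4 FPKM, led by Hmox1), and neutrophil granule and surface genes were all higher (11 of 11, 57.4 to 84.1 and 1586 to 1766 FPKM, led by Ngp). Of 5 tested plasma cell genes 3 were lower (97.2 to 106.9 and 53.2 to 56.8 FPKM, led by Jchain). Of 9 tested B cell genes 8 were higher and 1 lower (15.4 to 16.8 and 62.1 to 67.4 FPKM, led by Cd79b). NK cell genes had 1 higher and 1 lower of 3 tested (52.0 to 59.7 and 72.8 to 79.0 FPKM, led by Eomes, which memory CD8+ T cells also express, and 29.6 to 36.7 and 28.2 to 31.2 FPKM without it), dendritic cell genes 2 lower of 2 (9.03 to 11.0 and 4.0 to 5.02 FPKM) and CD4 T cell genes 2 lower of 5 (11.33 to 12.01 and 9.43 to 9.57 FPKM). Of 6 germinal centre B genes only Fas was tested and was not called, with sums of 11.7 to 14.8 and 10.6 to 11.99 FPKM. The part of these cell types in the decrease of the replication genes was not tested. Divided by the separate T lineage sum of the same sample, the sum of the 39 genes was 22.9, 23.2 and 22.9% in MWA+PBS and 13.0, 13.5 and 13.1% in MWA+2DG. The T lineage sum itself was higher in MWA+2DG, at 140.6% of the MWA+PBS mean, which lowers this ratio.

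**Figure D5:**
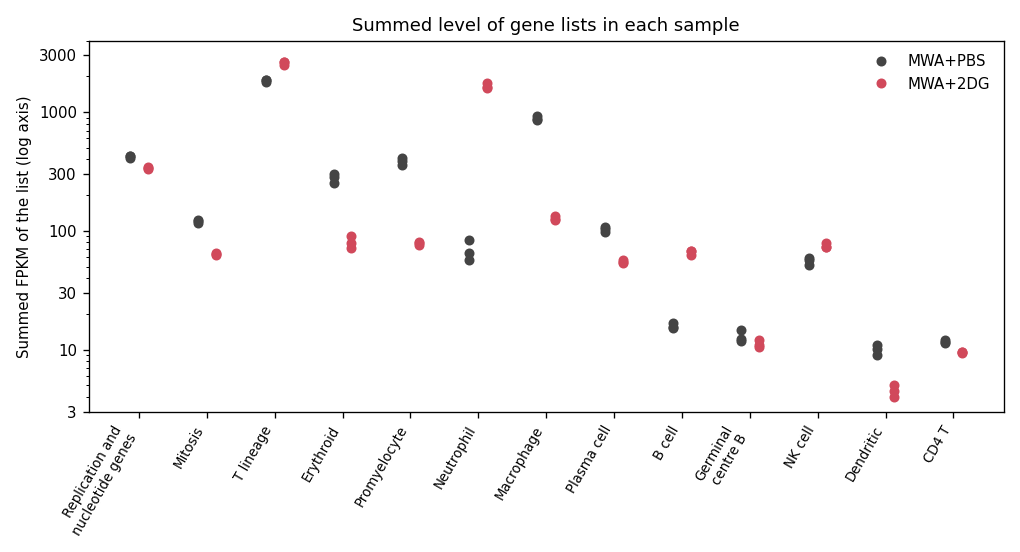
Summed FPKM (log axis) of the 39 genes, the mitosis list, T lineage markers and markers of other cell types in each sample, MWA+PBS in grey and MWA+2DG in red. The sum of the 39 genes moved from 407.0 to 428.7 FPKM down to 333.6 to 343.6 FPKM, while the erythroid, promyelocyte and macrophage sums fell and the neutrophil and B cell sums rose by more.

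Samples of a group were close to each other for these genes. The coefficient of variation over the 39 genes had a median of 7.29% in MWA+PBS and 5.96% in MWA+2DG. MWA+PBS replicate 3 was the lowest of its group in 23 of the 39 genes and MWA+PBS replicate 1 in 3, while the MWA+2DG samples shared the lowest place more evenly, in 10, 15 and 14 genes. All samples listed similar numbers of genes, 12198 to 12515 at 1 FPKM or more, and mitochondrial genes took 21.4 to 22.8% of the FPKM total in the MWA+PBS samples against 19.4 to 20.7% in the others. Mcm10 was the 1 gene of the 39 with a group mean under 1 FPKM, at 0.937 in MWA+2DG, and passed the filter on its mean over all samples. It was also called lower with no filter on low values.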

How the data were processed

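RNA from splenic CD8+ T cells (day 35, 3 MWA+PBS and 3 MWA+2DG samples) was made into strand-marked poly(A) libraries whose adapters carried molecular identifiers. The authors deposited FPKM values per gene, computed with StringTie and ballgown after fastp and HISAT2, and the submitters' processing notes list cutadapt 1.9, HISAT2 2.0.4, UMI-tools, StringTie 1.3.4d and mm9. No read counts were used here, so the depth is not known and counting error is not given. Each FPKM depends on the rest of its library.

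Symbols were found for 28689 of 28773 gene IDs (GENCODE M21). Genes with a mean FPKM of at least 1 were tested with limma 3.58.1 in R 4.3.3 on log2(FPKM + 1), eBayes with a trend, two-sided, Benjamini-Hochberg adjusted over 12444 genes. The test was checked on simulated data. The members and lists were chosen with earlier results of these data known. Within each role, genes with the largest and smallest change, the most abundant gene and all genes not called lower are given in full, and of the other pathway lists the 2 largest decreases and increases with 7 chosen genes (Rrm2b counts under both), plus Tk2 and Gins4, added after their values were seen. Alternatives were a pseudocount of 0.1, other filters (none, 5 FPKM), scalings, variance models and sample weights, leaving out each sample, and longer E2F letters. Promoter positions (GRCm38.p6) were not mixed with the mm9 files.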

Additional observations from a re-analysis of the deposited data

How the results depend on the processing

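The 20 decreases among the replication genes kept their direction under every alternative that tested them, and all passed the threshold under each change of pseudocount, filter, scaling, variance model and weights that tested them. Leaving out 1 sample ended the calls of Mcm2 and Mcm7 as given above. Under the 5 FPKM filter, 2951 genes were called in all, 11 of 22 tested members were lower and 0 higher, and 9 other pathway genes were lower. With no filter, 0 members and 10 other pathway genes were higher, and median ratio scaling also left 0 members higher. T lineage scaling gave 9043 calls in all, 37 members lower and 0 higher with a median of -0.70, and 67 other pathway genes lower and 1 higher. Of all tested genes, 68.8% were then lower and 3.86% higher. Leaving out each sample in turn gave 3669 to 5152 calls in all (4907 with all samples), 18 to 21 members lower, 0 to 1 higher, a median of -0.32 to -0.26, and 12 to 15 other pathway genes lower and 9 to 17 higher. Sample weights gave 6305 calls in all, 24 members lower and 24 other pathway genes higher, and the members gained were Orc1 (adjusted p 0.0382), Cdt1 (0.0179), Rfc5 (0.0363) and Pcna (0.0303). The 8-letter E2F forms were found in 42.4% of the member promoters, against 5.0% of tested genes.

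Signs turned under T lineage scaling, which shifts all genes, for Orc6 (-0.33), Gins3 (-0.11), Pola2 (-0.37), Rfc3 (-0.28), Rfc4 (-0.33), Chaf1b (-0.29), Atr (-0.12), E2f5 (-0.11), Samhd1 (-0.18), Dnmt1 (-0.41), Gmnn (-0.27), Rpa1 (-0.35), Rpa2 (-0.41), Rpa3 (-0.12) and Gins4 (-0.39). The other reversals were of genes near 0 that were not called, and their cause was not tested. Rpa2 was at -0.0104 under quantile normalization, -0.0318 under median ratio scaling and -0.0263 with sample weights, Dnmt1 at -0.0287 and Gins4 at -0.0145 under median ratio scaling and Mcm4 at 0.0018 with sample weights. Leaving out each sample gave -0.0623 to 0.0151 for Mcm4, -0.0324 to 0.0657 for Dnmt1, -0.0267 to 0.24 for Orc6, -0.0868 to 0.27 for Rfc4, -0.0304 to 0.0688 for Rpa2, -0.10 to 0.15 for Gins4 and -0.15 to 0.0012 for Prim2. Gins3 was not called with no filter (adjusted p 0.0806) or median ratio scaling (0.0565), and Pcna was called lower with median ratio scaling (0.0224), with scaling to a total that omits ribosomal protein, haemoglobin, immunoglobulin and mitochondrial genes (0.0455) and with T lineage scaling (0.000252). Of the single genes' values under alternatives, 772 kept sign and call. With the sign kept, 35 lost and 24 gained a call. A further 32 changed sign, and some of these also lost or gained a call. No paired analysis was possible because the groups share no replicate number. Depth is unknown, and with 3 samples a group an exact permutation test cannot go below 0.1.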
